A study of Mus musculus with 14 samples.

Results

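At 2969 sites in mouse gastruloids, p300, Sp5 and Zeb2 were found together at the end of a protein-coding gene. They are a part of 9585 p300 regions at gene ends (31.0%) and of 53025 p300 regions in all (5.60%). p300 peaks seen in both libraries were merged into regions once those that touched an input peak had been dropped. A region was kept here where it overlapped both an Sp5 region and a Zeb2 region, each found in both of its libraries, and where its strongest summit lay within 1000 bp of a gene end. The members were thus chosen by the peaks of these 6 libraries and by position, so the presence and the fold of p300, Sp5 and Zeb2 in gastruloids and the nearness to a gene end are given below as a description, with no test.

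The series holds lists of ChIP-seq peaks, the genomic stretches recovered with an antibody, from 14 libraries. Gastruloids were aggregates started from 300 sorted mouse embryonic stem cells, exposed to 3 µM CHIR99021, a Wnt pathway agonist, from 48 h and collected at 120 h, and the cells they were set against were undifferentiated embryonic stem cells (mESCs) in serum and LIF. In gastruloids, RXRα, Sp5 and Zeb2 were each tagged at the endogenous gene with HA and an FKBP12F36V degron and precipitated through HA, and p300 was tagged with V5 and miniTurboID and precipitated through V5, with 2 libraries each. RXRα and p300 were profiled in mESCs with the same tags, again with 2 libraries each, and each cell type had 1 input library from the p300 line. All lines derive from 1 E14 reporter line that carries Brachyury and Sox17 reporters. Nothing says whether the 2 libraries of a group came from separate cultures, and a gastruloid holds several cell types, so a protein bound in few cells and a protein bound weakly in many cannot be told apart.

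p300, encoded by Ep300, is a histone acetyltransferase that is brought to enhancers and promoters by DNA-bound factors. Sp5 is a zinc-finger factor of the Sp and Klf family, which binds GC-rich boxes, and its gene is a direct target of Wnt signalling in the primitive streak and tail bud. Zeb2 has 2 clusters of zinc fingers that bind E-boxes of the form CACCTG, and it is known for repressing epithelial genes with corepressors such as CtBP and the NuRD complex. RXRα is a nuclear receptor and the common partner of the receptors for retinoic acid, vitamin D and thyroid hormone.

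Promoter windows of 6 members show how the 2 kinds of site lie under the summits. They belong to named members, which are explained below. Shown are those with the lowest rank number in whose window all 6 summits of p300, Sp5 and Zeb2 fell; that condition was added after the positions were seen. Each window holds 300 bases of the RefSeq GRCm38.p6 promoter table in the direction of the gene, 250 before the annotated start and 50 from the start on, with the start base counted as position 0. Capitals mark the GC box (GGGCGG, or CCGCCC on the other strand) and the E-box bound by Zeb factors (CACCTG, or CAGGTG on the other strand).
Supt4a, chr11:87737301-87737600, + strand: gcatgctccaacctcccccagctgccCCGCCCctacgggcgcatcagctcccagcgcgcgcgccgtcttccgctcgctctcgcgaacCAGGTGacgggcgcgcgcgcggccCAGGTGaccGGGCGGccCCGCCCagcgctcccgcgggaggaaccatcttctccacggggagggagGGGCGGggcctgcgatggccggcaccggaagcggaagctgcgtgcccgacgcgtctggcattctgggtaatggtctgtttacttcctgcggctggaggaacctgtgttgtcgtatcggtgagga
Akirin1, chr4:123750250-123750549, - strand: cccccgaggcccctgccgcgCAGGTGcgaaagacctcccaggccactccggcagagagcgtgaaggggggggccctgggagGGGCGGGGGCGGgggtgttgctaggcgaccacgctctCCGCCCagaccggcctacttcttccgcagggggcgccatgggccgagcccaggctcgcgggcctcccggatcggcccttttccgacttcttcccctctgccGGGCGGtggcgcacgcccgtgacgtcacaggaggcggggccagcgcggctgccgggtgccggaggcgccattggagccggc
Dhx40, chr11:86807611-86807910, - strand: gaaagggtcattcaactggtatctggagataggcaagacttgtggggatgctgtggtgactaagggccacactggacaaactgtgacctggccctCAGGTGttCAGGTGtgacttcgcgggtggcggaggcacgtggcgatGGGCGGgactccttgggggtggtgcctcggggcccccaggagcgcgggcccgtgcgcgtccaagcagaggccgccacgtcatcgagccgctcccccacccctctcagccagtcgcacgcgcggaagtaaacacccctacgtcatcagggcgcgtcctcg
Kmt2a, chr9:44881240-44881539, - strand: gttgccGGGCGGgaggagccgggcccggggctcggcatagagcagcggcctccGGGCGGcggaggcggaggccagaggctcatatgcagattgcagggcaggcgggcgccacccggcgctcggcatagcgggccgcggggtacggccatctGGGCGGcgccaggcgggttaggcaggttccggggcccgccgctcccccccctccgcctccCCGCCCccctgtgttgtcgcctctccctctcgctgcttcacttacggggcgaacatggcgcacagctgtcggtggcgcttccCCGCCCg
Etfbkmt, chr6:149141263-149141562, + strand: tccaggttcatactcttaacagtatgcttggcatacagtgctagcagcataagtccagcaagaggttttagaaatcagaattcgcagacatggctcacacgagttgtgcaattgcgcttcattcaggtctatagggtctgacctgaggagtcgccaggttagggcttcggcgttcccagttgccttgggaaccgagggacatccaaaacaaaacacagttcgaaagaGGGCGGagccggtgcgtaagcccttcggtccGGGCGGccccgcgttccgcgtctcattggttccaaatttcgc
Psmd8, chr7:29180624-29180923, - strand: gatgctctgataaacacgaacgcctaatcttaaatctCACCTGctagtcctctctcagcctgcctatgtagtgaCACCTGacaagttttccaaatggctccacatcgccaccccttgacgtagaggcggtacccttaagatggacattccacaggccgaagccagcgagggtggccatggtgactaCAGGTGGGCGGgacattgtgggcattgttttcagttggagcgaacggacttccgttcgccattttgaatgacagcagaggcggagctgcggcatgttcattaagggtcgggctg

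In the window of Dhx40, which encodes a DEAH-box helicase, the 2 E-boxes span positions -155 to -150 and -147 to -142, and the Zeb2 summits lay at -150 and -145 in libraries 1 and 2. Its single GC box spans -109 to -104, and the Sp5 summits lay at -118 and -125. At Akirin1, which encodes a small nuclear protein, the E-box at -230 to -225 had Zeb2 summits at -224 and -238, while the Sp5 summits at -127 and -111 lay at or near the GC box of -132 to -127. Each of these 2 promoters thus had its Zeb2 summits at the E-box and its Sp5 summits toward the start. At Supt4a, which encodes a subunit of the DSIF elongation factor, the Sp5 summits at -208 and -228 lay by the GC box at -224 to -219, and both Zeb2 summits, at -121, lay in the GC box of -122 to -117, downstream of the E-boxes of -163 to -158 and -139 to -134. Psmd8, a proteasome lid subunit, had Sp5 summits at 22 and 0, away from its single GC box at -59 to -54, which shares a base with the E-box of -64 to -59. Its Zeb2 summits at -107 and -117 fell between that E-box and the one at -176 to -171. Kmt2a, the gene of the histone H3K4 methyltransferase MLL1, has 5 GC boxes and no E-box in its window, and all 4 Sp5 and Zeb2 summits lay between -162 and -148. Etfbkmt, the gene of a mitochondrial lysine methyltransferase, has 2 GC boxes and no E-box. Its Sp5 summits at -19 and -9 lay at or beside the box of -23 to -18, and its Zeb2 summits lay at -63 and -71. These 6 windows therefore range from a Zeb2 summit on an E-box to Zeb2 summits in a window without one.

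Members lay at starts of genes. The promoter table gave a strand for the gene nearest to 2405 members, and the end was the annotated start for 2372 of them (98.6%) and the other end for 33. The share was 97.4% for gene-end p300 regions with Sp5 and not Zeb2, 93.6% for those with Zeb2 and not Sp5, and 76.2% for those with neither. The median distance from the strongest summit to the gene end was 157 bp at members. An annotated start lay within 1000 bp of 2355 members, and 283 of these (12.02%) had the starts of at least 2 genes there, against 10.2%, 11.5% and 7.94% in the 3 other classes in the order above. Members were also the widest class, with a median of 987 bp, against 913, 782 and 605.5 bp. The rule asks for overlap with regions of both factors, which a wider region meets more easily, so width too is only a description. At the limit of the rule, the 2 members farthest from an end were at Ralgps2 and Tapbp, at 1000 bp each. The regions just outside, at Sp8 and Bbs2, lay at 1003 and 1005 bp, with peaks of Sp5 and Zeb2 in both libraries of each, while the Tapbp member touched a Zeb2 region found in both libraries but had a Zeb2 peak of its own in library 1 alone. The Bbs2 region had p300 folds of 9.12 and 8.69, and the Tapbp member had 4.61 and 6.17, so the limit does not part strong from weak sites.

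The classes next to the members rest on the shorter of 2 unequal peak lists. After input peaks were dropped, Zeb2 had 44310 and 12222 peaks in libraries 1 and 2, and Sp5 had 19714 and 11932. At the 3097 gene-end p300 regions with Sp5 and not Zeb2, Zeb2 library 1 had a peak at 2953 and library 2 at 20. At the 1019 regions with Zeb2 and not Sp5, Sp5 library 1 had a peak at 651. Without Zeb2 library 2, 5922 regions would be members, so Zeb2 library 2 sets how many there are. Left out 1 at a time, the other libraries gave 2892 to 3618 members.

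Folds here are the authors' own, the signal at a summit over the local background, and each is read within its library. Over the members, the median fold was 5.50 and 6.10 for p300 in libraries 1 and 2. Sp5 had medians of 9.24 and 6.22, and Zeb2 of 7.74 and 5.42. The median number of fragments at a summit, where it could be solved, was 31 and 26 (p300), 37 and 30 (Sp5) and 39 and 13 (Zeb2), so Zeb2 library 2 gives the least precise folds. The p300 folds ran from 2.45 to 21.9 in library 1 and from 2.45 to 24.7 in library 2. Libraries of 1 protein ordered the members alike, with a Spearman correlation of 0.69 for p300, 0.80 for Sp5 and 0.66 for Zeb2. Folds of Sp5 and Zeb2 were almost unrelated, with a Spearman correlation of 0.11 in libraries 1 (2967 members) and 0.04 in libraries 2 (2871 members). The correlation between p300 and Sp5 was 0.15 and 0.19, and between p300 and Zeb2 0.12 and 0.06. These are correlations across regions, which share libraries and a selection for a peak, and they are given with no test.

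Each member was ranked by its fold in each of the 6 libraries, and the members with the lowest mean rank number had high folds of all 3 proteins. The first was at Lsm14b, the gene of an RNA-binding protein of mRNA granules, with p300 folds of 12.01 and 15.4, Sp5 folds of 18.6 and 15.1 and Zeb2 folds of 17.7 and 16.1. All 6 folds lay far above the medians. The second, at the zinc-finger gene Zfp628, had p300 folds of 9.92 and 12.1, Sp5 folds of 17.4 and 13.7 and Zeb2 folds of 14.6 and 14.4. At Supt4a the Sp5 folds were 19.5 and 13.4 and the Zeb2 folds 20.7 and 15.2, with p300 at 8.26 and 10.5. Dhx40 had the highest Zeb2 fold of the 10 in library 1, with 25.5, and 16.9 in library 2. Etfbkmt had the highest Sp5 fold of the 10 in library 1, with 26.1, but 11.9 in library 2, and Zeb2 at 11.1 and 8.65. The other 5 were Akirin1, Kmt2a, Yeats2 (a histone reader of the ATAC acetyltransferase complex), Cyld (a deubiquitinase of the NF-kB pathway) and Limk2 (a kinase of cofilin). At Kmt2a the p300 folds were 11.6 and 13.01, the Sp5 folds 20.96 and 16.3, and the Zeb2 folds 12.5 and 7.55. Of the 10, Supt4a, Dhx40 and Limk2 lie on chromosome 11, which held 342 of the 2969 members. Its share of members among gene-end p300 regions was the highest, 342 of 823 (41.6%), against 31.0% over all chromosomes. The X chromosome had the lowest share, 37 of 245 (15.1%).

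**Figure D1:**
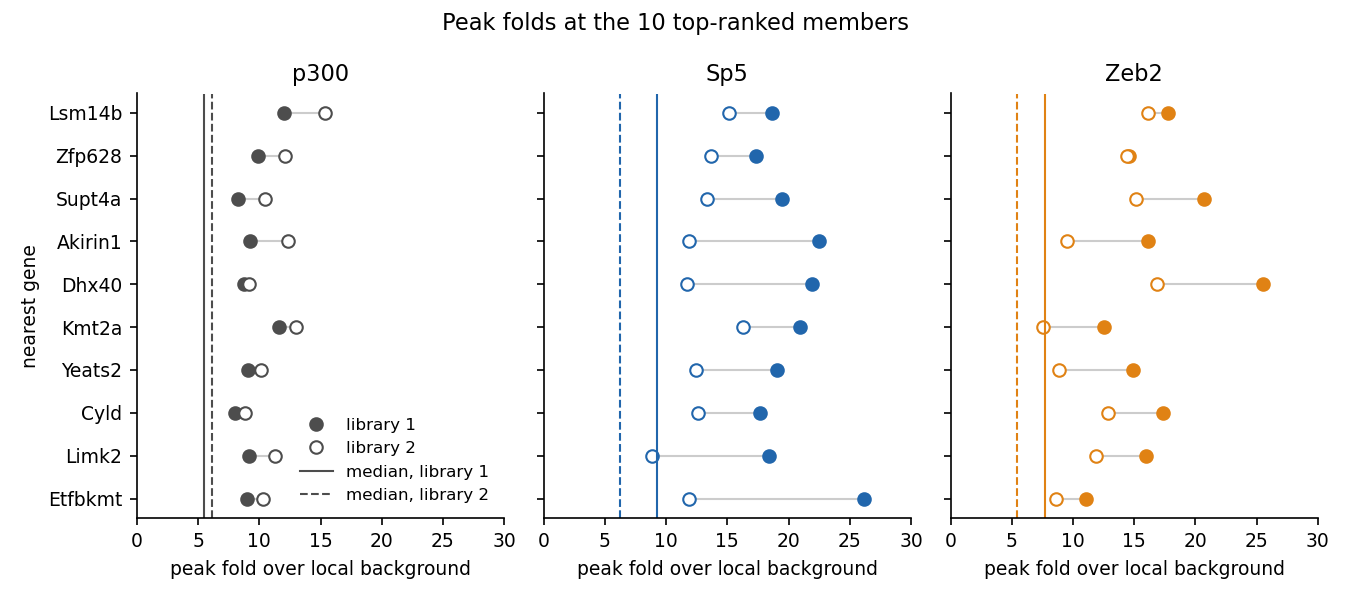
Fold of the p300, Sp5 and Zeb2 peak (x axis, fold over local background, linear from 0) at the 10 top-ranked members (y axis, nearest gene), with library 1 filled and library 2 open. The vertical lines are the medians over members with a peak, 5.50 and 6.10 for p300, 9.24 and 6.22 for Sp5, and 7.74 and 5.42 for Zeb2; each point lies to the right of its own library's line.

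The summits of the 3 proteins lay at different places around the start. Sp5 summits were just upstream, with a median of -40 and -29 bp in libraries 1 and 2 and 65.0% and 58.3% of them upstream. The 100 bp before the start held the 2 fullest bins of 50 bp, with 17% and 19.6% of members in library 1, and 12.9% and 15.0% in library 2. Zeb2 summits were mostly downstream, with medians of 111 and 75.5 bp and 38.5% and 41.7% upstream. Their fullest bin, from 150 to 200 bp, held 9.77% and 8.27% of members. In library 1 the bin just before the start, where Sp5 was most frequent, held 2.63% of Zeb2 summits, below the 4.54% of the bin from -200 to -150 bp. In library 2 the same bins held 4.51% and 4.47%, so the dip at the start was seen in 1 of the 2 libraries. p300 summits were spread over both sides, with medians of 34 and 1 bp and 74.8% and 77.8% within 250 bp of the start. RXRα summits of gastruloids, present at fewer members, had medians of 62 and 55 bp, and p300 summits of mESCs had medians of -45 and -84 bp.

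**Figure D2:**
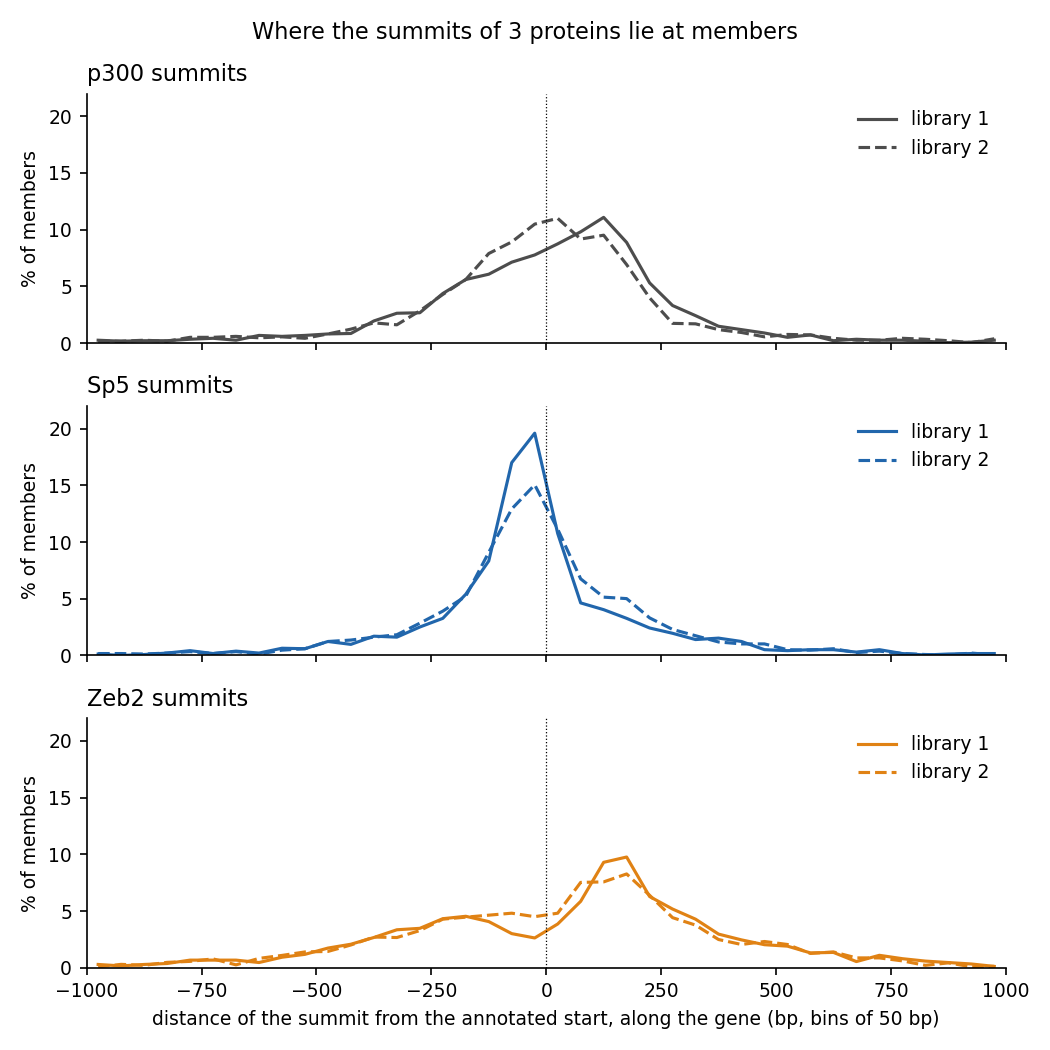
Percent of members (y axis) whose p300, Sp5 or Zeb2 summit lies in each bin of 50 bp around the annotated start (x axis, bp along the gene), with library 1 as a solid and library 2 as a dashed line. Sp5 is highest just before the start, where 19.6% and 15.0% fall in 1 bin, and Zeb2 is highest from 150 to 200 bp after it, where 9.77% and 8.27% fall.

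Within a member, Sp5 and Zeb2 summits were seldom at 1 place. Their median distance was 222 bp in libraries 1 and 200 bp in libraries 2, a mean of 211 ± 15.6 bp (SD, n = 2 pairs of libraries). The 2 libraries of 1 protein lay closer together, with median distances of 38 bp for Sp5, 60 bp for Zeb2 and 75 bp for p300. Sp5 and Zeb2 summits were within 100 bp of each other at 23.1% and 28.6% of members, while the 2 Sp5 libraries were within 100 bp at 77.7% and the 2 Zeb2 libraries at 63.6%. The distance between the factors was thus larger than the distance between replicate summits. Such distances were not particular to members or to this pair. Where both had a peak in libraries 1, the median was 210 bp with Sp5 and not Zeb2, 199 bp with Zeb2 and not Sp5 and 170.5 bp with neither. At members, RXRα summits of gastruloids lay at a median of 180 and 185 bp from those of Sp5, and of 220 and 214 bp from those of Zeb2. p300 summits lay at a median of 148 and 124.5 bp from those of Sp5, and of 192 and 183.5 bp from those of Zeb2.

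Windows of 2349 distinct promoters at members were searched for 11 motifs on both strands. The GC box stood in 80.4% of them (95% Wilson interval 78.7 to 81.9%, counting error only), against 46.2% of 21262 promoters of protein-coding genes. Promoters with Sp5 and not Zeb2 held it at 82.6%, those with Zeb2 and not Sp5 at 53.8% and those with neither at 47.6%. The E-box stood in 22.1% of member promoters (20.5 to 23.9%), in 11.6% with Sp5 and not Zeb2, in 27.0% with Zeb2 and not Sp5 and in 15.0% with neither, against 19.7% of the promoters of all protein-coding genes. Both classes with Zeb2 thus held the E-box more often than the 2 without it, and both classes with Sp5 held the GC box more often than the 2 without it. The member share of E-boxes was nevertheless close to that of the promoters of all protein-coding genes. With members limited to peaks of −log10 q of at least 5 it was 28.5%.

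Base composition moved with these classes. Member windows had a median GC content of 64.3%, against 63.7%, 60.0% and 58.2% in the other 3 classes and 56.3% in promoters of all protein-coding genes. The ratio of observed to expected CpG was over 0.6, a common limit for CpG islands, in 88.1% of member windows and 47.7% of promoters of all protein-coding genes. The other 3 classes had 85.7%, 74.5% and 65.5% in the same order. Promoters of all protein-coding genes were split into 4 bins of about equal size by GC content. Promoters with Sp5 and not Zeb2 held the GC box more often than members in each bin. In the bin of highest GC content, the GC box stood in 92.6% of member windows, in 79.3% with neither factor and in 88.2% of all. With Sp5 and not Zeb2 it stood in 93.1%. In the bin between 48.3% and 56.3% GC, the shares were 57.8%, 29.5% and 29.1%, and 63.0% with Sp5 and not Zeb2. For the E-box, members were above promoters with Sp5 and not Zeb2 in each bin. The shares were 10.3% against 6.76% in the lowest, where there were 68 member windows, and 23.1% against 11.9% in the highest. Promoters with Zeb2 and not Sp5 were above members in each bin but the lowest, with 8.70% in the lowest and 30.6% in the highest. Members were not above promoters of all protein-coding genes in the bins below the highest. From the lowest bin up, the shares there were 10.3% against 15.1%, 20.6% against 22.4% and 22.4% against 22.4%. In the highest bin members had 23.1% against 19.1%.

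Among the other 9 motifs, the ETS core, the NRF1 core and the Myc-type E-box were more frequent at members than among promoters of all protein-coding genes. These 9 motifs were not compared at equal GC content, which was higher in member windows. The ETS core CCGGAAG stood in 19.3% of member windows against 11.6%, the NRF1 core GCATGCGC in 6.90% against 3.51%, and the Myc-type E-box CACGTG in 11.7% against 7.84%. The CCAAT box stood in 37.5% against 38.2%. The TATA box TATAAA stood in 4.85% against 12.6%, the GATA site AGATAA in 3.92% against 9.65%, the AP-1 site TGACTCA in 2.26% against 4.66%, and the AGGTCA site of nuclear receptors in 10.3% against 14.7%. The Tcf/Lef core CTTTGA, the site of the Wnt effectors, stood in 9.07% against 14.4%. Promoters with Sp5 and not Zeb2 had 21.04% for the ETS core, 5.25% for the TATA box and 9.88% for the Tcf/Lef core, and promoters with Zeb2 and not Sp5 had 19.3% for the ETS core, 6.66% for the NRF1 core and 10.5% for the Myc-type E-box. These features are thus shared with other gene-end p300 regions, and those with neither factor had 16.8% for the ETS core. The motifs share bases in places, as at Psmd8, and a match is a run of letters, not a measured site.

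**Figure D3:**
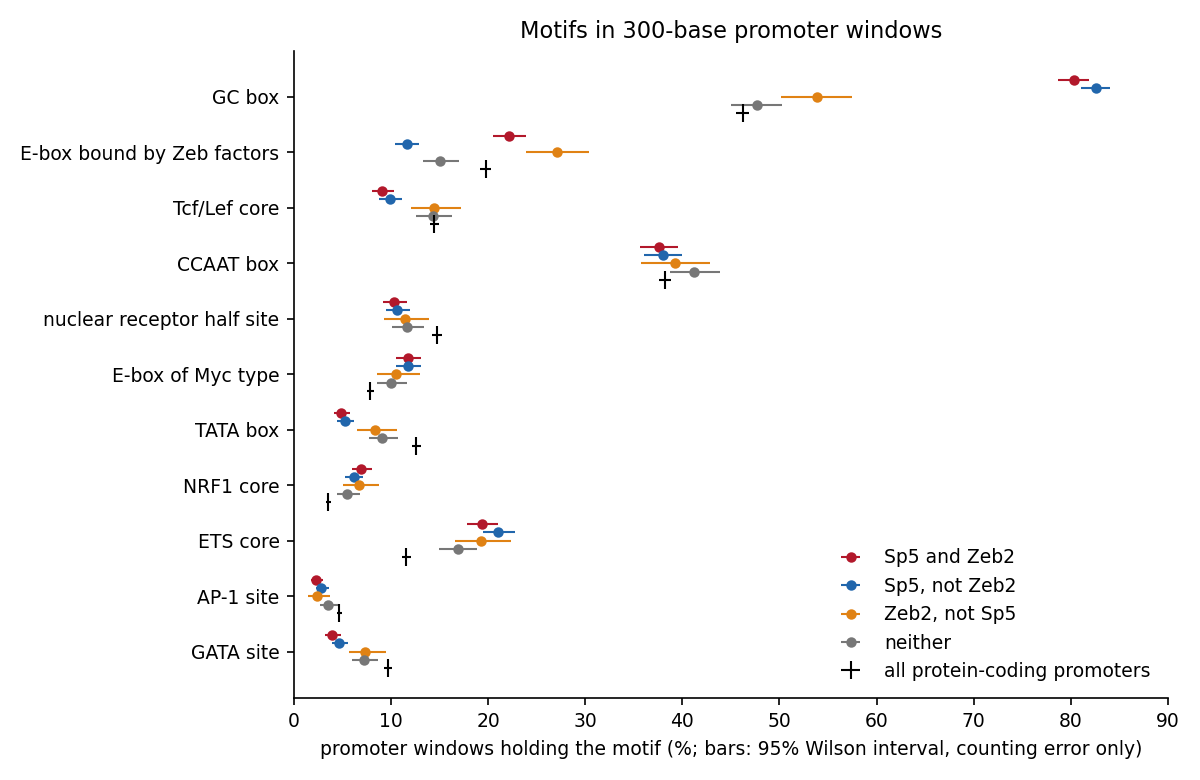
Percent of 300-base promoter windows that hold each of 11 motifs (x axis) in the 4 classes of gene-end p300 regions and in promoters of all protein-coding genes, with 95% Wilson intervals. The GC box stands at 80.4% at members and 82.6% with Sp5 and not Zeb2, and the E-box at 22.1% at members and 27.0% with Zeb2 and not Sp5.

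Each motif lay closest to the summit of its own factor. In 223 windows that held the summits of all 3 proteins in libraries 1, 188 had a GC box, at a median of 13.5 bp from the Sp5 summit, 54 bp from the Zeb2 summit and 41 bp from the p300 summit. The GC box was nearer to Sp5 than to Zeb2 in 78.2% and nearer to Zeb2 in 20.7%. In libraries 2, 244 of 282 such windows had a GC box, at medians of 17.5, 46.5 and 35.5 bp from the same 3 summits, and it was nearer to Sp5 in 69.3%. For the E-box the order turned round. In libraries 1, 107 of these windows had 1, at a median of 32.5 bp from the Zeb2 summit, 71.5 bp from the Sp5 summit and 63.5 bp from the p300 summit. In libraries 2, the 110 windows with an E-box had medians of 24, 61 and 60.5 bp. Zeb2 was the nearer of the 2 factors in 65.4% and 65.5%.

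The number of sites moved with the fold of the matching factor. The median Sp5 fold of members with no, 1, 2 and at least 3 GC boxes in the window was 8.25, 8.53, 9.45 and 10.6 in library 1, and 5.46, 5.84, 6.37 and 6.96 in library 2. The Zeb2 folds over the same steps were 7.73, 7.65, 7.87 and 7.80 in library 1, with no such order. For no, 1 and at least 2 E-boxes, the median Zeb2 fold was 7.53, 8.57 and 9.65 in library 1 (1829, 441 and 79 members), and 5.28, 5.82 and 7.45 in library 2. The Sp5 folds there were 9.24, 9.34 and 10.01, and 6.22, 6.21 and 6.67. p300 folds showed no gain with either motif, with 5.64 at no GC box and 5.47 at 3 or more in library 1, and 5.53 at no E-box and 5.38 at 2 or more.

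The libraries that the rule did not use were p300 in mESCs and RXRα in both cell types. With 2 libraries a group, an exact test between libraries cannot give a p under 0.333, and regions are not replicates, so both libraries are given side by side. RXRα of gastruloids had a peak at 89.8% of members in library 1 and 14.1% in library 2, and at 406 members (13.7%) in both. The same was found for 8.91% of all gene-end p300 regions. The libraries differ as their lists do, with 29867 and 3111 peaks. In each library members had the highest share of the 4 classes at gene ends. With Sp5 and not Zeb2 it was 81.0% and 8.91%, with Zeb2 and not Sp5 69.0% and 9.42%, and with neither 45.5% and 4.12%. RXRα of mESCs had a peak at 72.4% and 52.2% of members and at 47.3% in both libraries, against 35.6% of all gene-end p300 regions. The 3 other classes had 59.9% and 39.6%, 57.9% and 39.3%, and 40.6% and 25.2%. Away from gene ends, the 1269 p300 regions with Sp5 and Zeb2 had RXRα of gastruloids at 80.3% and 18.9%, and at 18.7% in both libraries, more than members in library 2. They had RXRα of mESCs at 64.8% and 46.2%, and at 43.6% in both. With stricter peaks, of −log10 q of at least 5, RXRα of gastruloids was found in both libraries at 6.30% of the members then left, and with lists cut to equal length at 8.10%.

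p300 itself had a peak in mESCs at 38.4% and 25.8% of members and at 19.8% in both libraries, against 16.1% of all gene-end p300 regions. At 1655 members (55.7%) neither mESC library had a p300 peak. The other 3 classes had 29.3% and 17.8%, 23.3% and 16.8%, and 24.3% and 18.5%. The 1269 regions away from gene ends had more, with 46.8% and 37.0%. Members with p300 in both mESC libraries had RXRα in mESCs at 89.0% and 71.5%, and members with no p300 peak in mESCs at 63.0% and 42.1%. Their folds in gastruloids differed less, with a median p300 fold of 6.27 and 7.001 against 5.23 and 5.796, a median Sp5 fold of 9.26 and 6.43 against 9.18 and 6.07, and a median Zeb2 fold of 7.69 and 5.57 against 7.63 and 5.34.

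**Figure D4:**
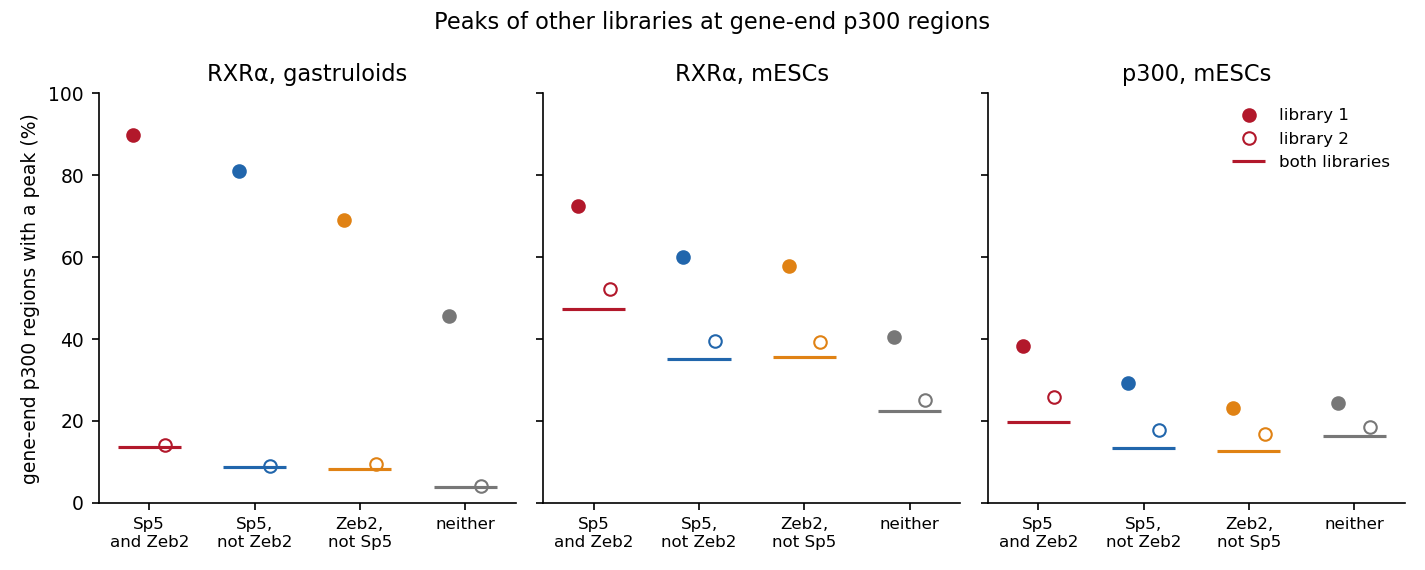
Percent of gene-end p300 regions of gastruloids with a peak (y axis) of RXRα in gastruloids, RXRα in mESCs or p300 in mESCs, by class (x axis), with library 1 filled, library 2 open and the share found in both libraries as a bar. Members stand highest in each library, at 89.8% and 14.1% for RXRα in gastruloids.

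Width and p300 strength also moved with the class. With gene-end p300 regions split into 4 bins by p300 fold, members made up 37.4% of the strongest bin and 20.3% of the weakest. Within the weakest bin, RXRα of mESCs was found in both libraries at 36.8% of members and 19.1% of regions with neither factor, and in the strongest bin at 55.7% and 28.8%. For p300 in mESCs the same shares were 10.1% and 9.77% in the weakest bin and 33.7% and 30.8% in the strongest. In a second count, the strongest peak of a library in a region counted only with its summit within 250 bp of the p300 summit. A weaker peak within 250 bp was not counted, so the width of a region can still enter. RXRα of gastruloids then stood at 60.1% and 9.36% of members, against 34.3% and 3.08% with neither. RXRα of mESCs stood at 44.7% and 30.2%, against 29.6% and 17.8%. p300 in mESCs then stood at 26.4% and 17.2% of members and 20.6% and 15.8% of regions with neither, while the share in both libraries was 12.2% at members and 13.7% with neither. Members were above regions with neither factor in each of the 4 bins and in the count within 250 bp for RXRα, in both cell types and both libraries. They were not above each class in each bin. In the second weakest bin, RXRα of gastruloids stood at 10.7% of members in library 2 and 10.3% in both libraries, against 13.1% and 11.2% of regions with Zeb2 and not Sp5. p300 in mESCs, counted in both libraries and within 250 bp in this way, was not more frequent at members than at regions with neither. Sp5, Zeb2 and RXRα were precipitated with the same HA antibodies, no HA precipitation from untagged cells was analysed here, and the part of the antibody in the shared peaks was not tested.

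The members with the highest RXRα folds in both gastruloid libraries had RXRα peaks in both mESC libraries too, in each of the 5 named here. Such peaks were common: of the 418 members with RXRα in gastruloid library 2, 383 had it in mESC library 1 and 347 in mESC library 2. At Ptprz1, the gene of a receptor tyrosine phosphatase, the RXRα folds were 24.4 and 14.4 in gastruloids and 30.3 and 21.7 in mESCs, and the p300 folds of 21.9 and 24.7 were the highest of the members in gastruloids. At Pkd2l1, an ion channel gene, the RXRα folds were 33.0 and 14.3 in gastruloids and 24.1 and 21.6 in mESCs. Dusp5, the gene of a nuclear ERK phosphatase, had 30.4 and 19.2 in gastruloids and 13.9 and 9.39 in mESCs, and its p300 peak, with folds of 12.4 and 16.1 in gastruloids, had no counterpart in either mESC library. Cfl2 (a cofilin) had 34.4 and 17.4 in gastruloids and 23.2 and 20.8 in mESCs. Mpc1 (a mitochondrial pyruvate carrier) had 24.6 and 13.1 in gastruloids and 9.17 and 7.18 in mESCs. Over members with both peaks, the Spearman correlation between RXRα folds of gastruloids and mESCs was 0.55 in libraries 1 (2020 members) and 0.58 in libraries 2 (347 members).

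Members lay at an end of 3417 of 21883 protein-coding genes (15.6%), or of 33.4% of the 10227 genes with a p300 region at an end. In 19 gene lists the counts below are read against these 2 shares, with no test. The lists were drawn up with earlier results of these data known.

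The first lists hold the families and partners of the 2 factors. With lists of this size 1 or 2 genes move a share, and no list is called particular. Sp and Klf factors had a member at 8 of 18 genes with a gene-end p300 region (44.4%, against 33.4% of all such genes), namely Klf3, Klf5, Klf10, Klf11, Klf13, Klf16, Sp3 and Sp7. At Klf11 the p300 folds were 10.6 and 13.4, the Sp5 folds 13.2 and 8.06 and the Zeb2 folds 5.83 and 4.89, and RXRα was found in all 4 of its libraries. Corepressors that work with Zeb2 had 7 of 17, with Ctbp1, Gatad2a, Gatad2b, Mbd3, Rbbp4, Rbbp7 and Rcor1. At Mbd3, which encodes a subunit of NuRD, the p300 folds were 9.72 and 11.3, the Sp5 folds 17.9 and 10.5 and the Zeb2 folds 7.55 and 6.85. Its RXRα folds were 19.1 and 11.2 in gastruloids and 16.3 and 13.5 in mESCs. Ctbp1, the corepressor that binds Zeb2 directly, had Sp5 folds of 7.89 and 6.74 and Zeb2 folds of 7.93 and 5.53. The p300 coactivator complexes had 11 of 26, among them Crebbp, the paralogue of p300, Kmt2a, Kmt2b, and the Mediator genes Med1 and Med12. Med12 had p300 folds of 15.7 and 17.01 in gastruloids and 12.8 and 11.05 in mESCs, and no RXRα peak in gastruloids.

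Of the 4 profiled proteins, 1 has a member at its own gene. At Ep300 the folds were 6.06 and 6.78 for p300, 7.77 and 4.61 for Sp5, and 6.26 and 3.99 for Zeb2, which put it at rank 2280 of 2969. At Sp5 the p300 folds were 11.4 and 11.1 and the Sp5 folds 4.82 and 6.24, and Zeb2 had a peak in library 1 alone, with a fold of 3.68. The p300 regions at the ends of Rxra and Zeb2 had no Sp5 peak, and a Zeb2 peak in library 1 alone, with folds of 2.79 at Rxra and 6.66 at Zeb2.

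Epithelial junction genes, the textbook targets of Zeb factors, had a member at 6 of 16 genes, among them Epcam, Jup, Marveld2, Pard6b and Patj. Another 8 had Zeb2 without Sp5 and 1 had Sp5 without Zeb2, while over the genes of the whole annotation 3471 had Sp5 without Zeb2 and 1090 had Zeb2 without Sp5. Marveld2, the gene of tricellulin, had Zeb2 folds of 14.9 and 9.58 and Sp5 folds of 9.15 and 7.11. Pard6b, a polarity gene, had Sp5 folds of 11.97 and 10.7 and Zeb2 folds of 10.1 and 9.47. Among EMT and mesenchymal genes 4 of 11 had a member, Fn1, Snai2, Tcf12 and Tcf4. Snai2, a repressor of the Snail family, had Zeb2 folds of 15.1 and 7.05 and Sp5 folds of 10.1 and 4.56. It had no p300 peak in mESCs, as was found for 55.7% of members. Tcf12 had Zeb2 folds of 12.2 and 10.1 and Sp5 folds of 16.4 and 8.94. Tcf4 had Zeb2 folds of 6.56 and 6.96 and Sp5 folds of 12.1 and 7.015.

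Signalling and patterning genes came next. The Wnt list had 7 of 25 genes with a gene-end p300 region (28%, against 33.4% of all such genes), the β-catenin gene Ctnnb1, the inhibitors Dkk1, Nkd2 and Znrf3, the factors Lef1 and T, and the corepressor Tle1. None of these 7 had p300 in both mESC libraries, and neither did any of the 9 proteasome or 10 ribosomal protein genes with a member. Over all 3417 genes with a member 668 did, and 5 of the 6 epithelial junction genes did. Znrf3, a ubiquitin ligase that removes Wnt receptors, had p300 folds of 7.25 and 10.96, Sp5 folds of 17.4 and 10.4 and Zeb2 folds of 8.70 and 5.61. At T, which encodes Brachyury, the Sp5 folds were 13.5 and 6.72 and the Zeb2 folds 5.24 and 3.78. BMP and TGF-beta genes had 3 of 22 (Acvr1, Acvr2b and Smad2), retinoic acid genes 1 of 12 (Ncor1), somite and presomitic mesoderm genes 1 of 14 (Hes7), neural tube factors 1 of 10 (Zic2) and pluripotency factors 2 of 10 (Klf5 and Zfp281). Hes7, an oscillating gene of the segmentation clock, had p300 folds of 12.5 and 16.5, with Sp5 at 6.21 and 4.13 and Zeb2 at 5.59 and 5.76. Zfp281 had the strongest Sp5 peak among the named members in both libraries, with folds of 29.9 and 16.9, beside Zeb2 folds of 6.20 and 4.46. Of 20 Hox genes with a gene-end p300 region 5 had a member, Hoxa4, Hoxb2, Hoxb3, Hoxb5 and Hoxb9. Hoxa4 had p300 folds of 19.5 and 21.7, Sp5 folds of 9.32 and 5.64 and Zeb2 folds of 5.21 and 4.43, and no p300 peak in mESCs.

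Housekeeping lists were uneven. Splicing and RNA-binding factors had a member at 11 of 27 genes with a gene-end p300 region, proteasome subunits at 9 of 26, and translation factors at 9 of 27. Psmc3, a proteasome ATPase, had Zeb2 folds of 18.5 and 11.6 and Sp5 folds of 6.71 and 4.51, and Psmd8 had the reverse, with Zeb2 at 9.04 and 5.36 and Sp5 at 15.8 and 13.1. Eif4b, a helicase cofactor in initiation, had Zeb2 folds of 12.5 and 10.8 and Sp5 folds of 12.1 and 6.05. Sf3b1, a core splicing factor, had Sp5 folds of 11.6 and 9.97 and Zeb2 folds of 12.1 and 6.05. Ribosomal protein genes had a p300 region at 70 of 78, but a member at 10 (14.3% of 70), and 39 had Sp5 without Zeb2. Of those with a member, Rpl39 had Zeb2 folds of 14.3 and 11.04 and Sp5 folds of 9.07 and 7.33, and Rps13 had 13.02 and 5.73 for Zeb2 and 16.5 and 10.3 for Sp5. Replication and cell cycle genes had 5 of 28 and immediate early genes 4 of 21 (Egr1, Fos, Fosl1 and Nr4a1), and 15 immediate early genes had Sp5 without Zeb2. This count and the 39 above stand beside 3471 of all 10227 genes with a gene-end p300 region. The class rests on the short list of Zeb2 library 2, and Zeb2 library 1 had a peak at 2953 of its 3097 regions. The adult tissue control list had 1 of 6, the synaptic gene Snap25.

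**Figure D5:**
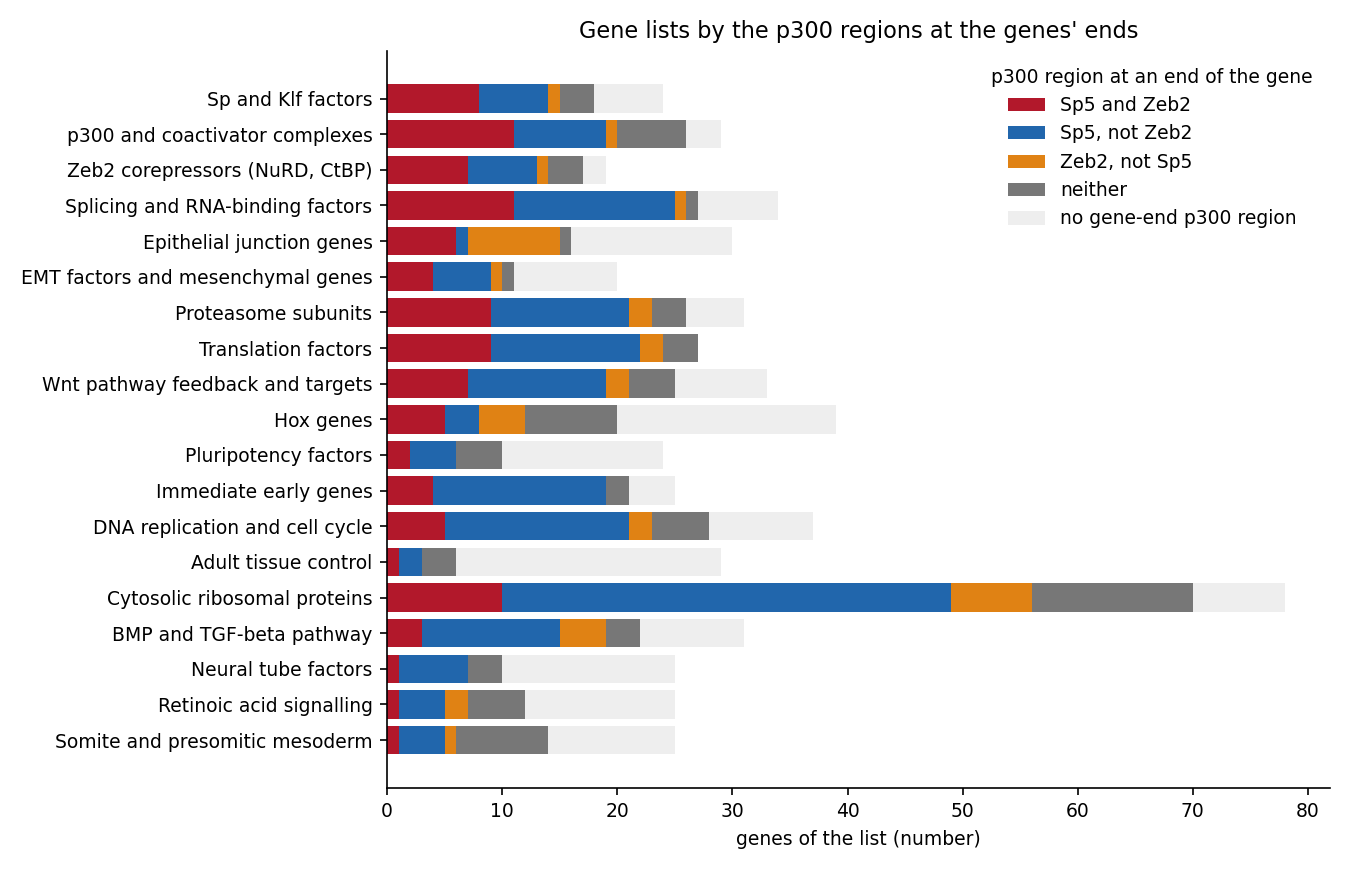
Number of genes in each of 19 lists (x axis) by the p300 region at an end of the gene, ordered from the top by the share of genes with a gene-end p300 region that have a member. Sp and Klf factors, with 8 of 18, stand at the top, and somite and presomitic mesoderm genes, with 1 of 14, at the bottom; epithelial junction genes have the most with Zeb2 and not Sp5, 8.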

How the data were processed

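The deposited files held 1 list of peaks for each of 14 libraries, 422096 peaks in all, not pooled between replicates. Per the submitters' processing notes, fastp 0.20.1, BWA 2.2.1 and MACS2 2.2.7 were used with the mouse build GRCm38.p6 (mm10). Their roles and settings, and whether an input served as control, are not given in the sources used here. The authors' score of a peak was 10 times its −log10 q, rounded down, and was read only to check the lists. The authors' fold is the summit's signal as a ratio over the background around it. The deposited lists also hold the −log10 of p and q of a peak, with a lowest −log10 q of 1.30, a q-value of 0.05. Depth was not given. Solving the fold and −log10 p for the pileup gave the fragments at a summit, whole within 0.05, for 26363 of the 26405 peaks at members; the other 42 had a p too small to solve. All intervals cover counting error only.

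Libraries were grouped by the antibody and cell type of their labels. Peaks on 21 main chromosomes were used, peaks overlapping an input peak by 1 bp were dropped, and regions were peaks merged over both libraries of a group and found in each. The strongest summit was the one with the highest fold. Gene ends came from a RefSeq table of 21883 protein-coding genes of the same build. Strands, starts and sequences came from RefSeq promoters of 17491 of these genes, matched by gene ID, with none on chromosome 18, where 76 members lie. Genes were named by rule: the 10 members with the lowest mean of 6 fold ranks, up to 3 a list with the lowest mean rank, the genes of the 4 proteins, 2 members inside and 2 regions outside the limit of 1000 bp, and 5 members by RXRα rank. Other genes at members are listed by name only. Members, lists and motifs were chosen with earlier results of these data known. Overlap, distance, motif and fragment steps were tested on simulated data. Scripts used Python 3.11.15, pandas 2.3.3, numpy 2.4.6 and scipy 1.17.1.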

Additional observations from a re-analysis of the deposited data

How the results depend on the processing

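The 7 results were recomputed under 142 combinations of result and alternative. Some could not move, since leaving out an RXRα library or a p300 library of mESCs alters only the share of that group. Counting these, 132 stayed within 1.5 times the count, 1 SD of the libraries or the 95% interval. Some moves inside that SD were large: with −log10 q of at least 5, RXRα was at 6.30% of members in gastruloids and 33.5% in mESCs, and with lists of equal length at 8.10% and 34.7%, against 13.7% and 47.3% as reported. p300 in mESCs was at 15.7% and 15.1%, against 19.8%. Peaks of −log10 q of at least 5 left 1239 members and gave 28.5% with an E-box. The central 200 bases of the window gave 72.9% with a GC box and 15.0% with an E-box, since a shorter window holds fewer matches. Leaving out 1 library at a time gave 2892 to 5922 members, 16.7 to 38.4% with p300 in mESCs, 11.3 to 89.8% with RXRα in gastruloids, 41.7 to 72.4% with RXRα in mESCs, 200 to 219.5 bp between Sp5 and Zeb2 summits, 76.4 to 81.4% with a GC box and 17.1 to 22.7% with an E-box. The highest member count, 5922, and the lowest E-box share, 17.1%, came without Zeb2 library 2. The highest shares with p300 or RXRα came without library 2 of that group, the shorter list. The lowest GC box share, 76.4%, came without Sp5 library 2. The SD between the RXRα libraries of gastruloids was 53.5 percentage points, so that share has little precision. A strongest summit chosen by −log10 q, added after the data were seen, gave 2972 members. No paired test was made, because the results come from no test. Absence of a peak in a library of few peaks does not show absence of binding.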
